A study of Equus caballus with 9 samples.

Results

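Fetal tenocytes and tenocytes differentiated from embryonic stem cells (ESC-tenocytes) of the horse were compared after 14 days in 3D collagen gels, across all genes measured by RNA sequencing. The comparison uses 6 of the 9 libraries of the series, 3 fetal and 3 ESC lines with 1 library per line, chosen by their labels. The fetal lines 271d, 319d and 320d are named for the days of gestation at which tendon cells were isolated from spontaneously aborted fetuses, and were cultured at passages 5, 8 and 4. Each of the ESC lines came from its own embryo, with HJ used at passage 12, IG at passage 16 and PW at passage 14. The groups also differed in handling. Fetal cells were suspended in the collagen and given tenocyte medium. The ESCs had been kept with leukaemia inhibitory factor on inactivated mouse feeder cells and passaged with Thiazovivin, and entered the gels as clumps in their own medium without that factor. Both media contained serum. Cell origin, passaging, medium and seeding therefore cannot be told apart. Library kit, sequencer and sequencing provider also varied within the study. They are not assigned to libraries, so their overlap with the groups is unknown.

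Tenocytes are the resident fibroblasts of tendon. They build and maintain a matrix of aligned collagen, and cells seeded in a collagen gel held under tension contract it into a tendon-like construct. Fetal tendon is known to heal with less scarring than adult tendon, and stem cells are studied as a source of replacement tenocytes. The share of ESCs that had become tenocytes was not measured in these constructs, which were pooled for RNA. Because the counts are listed by Ensembl identifier without gene names, lists of tendon, cartilage, pluripotency and other cell type markers were not analysed here beyond COMP, and the cell type labels were not checked against them.

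Sequencing depth differed between lines. Library totals were 19801323 counts in 271d and 20705852 in 319d, but 10568491 in 320d. In the ESC lines they were 9412112 in HJ, 10772461 in IG and 8965593 in PW. Genes with at least 1 count numbered from 14306 in HJ to 15431 in IG. The p-values measure the spread between lines. Values are given as CPM, the counts of a gene per 1000000 counts with library sizes scaled by TMM, or log2 fold changes of fetal over ESC-tenocytes (Log2FC), so that a positive value is higher in fetal tenocytes. CPM is not divided by transcript length and gives a gene's share of reads rather than of transcripts. In RNA from whole constructs, fewer cells of a type and less RNA per cell cannot be told apart.

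ESC line IG stood apart from the other ESC lines and lay nearer to the fetal lines than they did. Euclidean distances of log2 CPM over the 12826 tested genes were 84.7 between HJ and PW, 133 between HJ and IG and 138 between IG and PW. Among fetal lines they ranged from 75.1 to 97.6. The fetal lines lay 304 to 313 from HJ and PW, and 242 to 250 from IG. On the first principal component, which held 86.1% of the variance, the fetal lines scored from -140 to -135, HJ 164, PW 159 and IG 88.7. On the second component, which held 5.88%, IG scored -75.1, against 18.4 in HJ, 38.8 in PW and -9.77 to 17.3 in the fetal lines. The groups did not overlap on the first component, where IG was the nearest ESC line to the fetal side, and on the second IG lay away from all other lines of both groups. Results that rest on IG are given with and without it.

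Fetal and ESC-tenocytes differed by a fold change of 4 or more and an adjusted p (p-adj) under 0.01 in 2017 of 12826 tested genes, 15.7% of them. Of these DE genes 952 were higher in fetal tenocytes (7.42% of tested genes) and 1065 were higher in ESC-tenocytes (8.3%), by edgeR's quasi-likelihood test with Benjamini-Hochberg adjustment. At the other end, 7788 genes (60.7%) differed less than 2-fold. No DE gene had overlapping groups, and 63.3% of all tested genes had groups that did not overlap, 31.9% with the fetal lines above and 31.3% with the ESC lines above. Without IG the test called 2459 of 13165 genes (18.7%), with 1435 higher in fetal tenocytes (10.9%) and 1024 higher in ESC-tenocytes (7.78%). The share of DE genes that were higher in fetal tenocytes was 47.2% with IG and 58.4% without it. Leaving out any of the other 5 lines lowered the count, to 1144 without 271d, 1075 without 319d, 1397 without 320d, 1189 without HJ and 1326 without PW. It lowered the fetal share as well, to 29.6% without 271d, 27.4% without 319d, 32.6% without 320d, 29.2% without HJ and 30.5% without PW. A term for library total, added because only 271d and 319d were deep, left 643 DE genes. The term splits libraries at 15000000 counts, so 320d alone then sets the fetal side against the ESC lines. Depth and the choice of fetal line cannot be told apart in that fit, for its counts and for its p-adj. With all libraries thinned to the smallest total, 1976 genes were DE. DESeq2 on the 6 libraries called 2781 genes (21.7%), 57.4% of them higher in fetal tenocytes (12.4% of tested genes, against 9.25% higher in ESC-tenocytes). These included 2007 of the genes called by edgeR, which is 99.5% of the edgeR list and 72.2% of the DESeq2 list. Without IG, DESeq2 called 3102 genes (23.6%), with 1926 higher in fetal tenocytes (14.6%) and 1176 higher in ESC-tenocytes (8.93%).

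The number of DE genes higher in fetal tenocytes depended on the lines used more than the number higher in ESC-tenocytes. In the fits without 271d, 319d, 320d, HJ and PW, 339, 295, 455, 347 and 404 genes were higher in fetal tenocytes, and 805, 780, 942, 842 and 922 were higher in ESC-tenocytes. The fit without IG was the only one of the 6 in which the fetal list grew. Of the 1065 genes higher in ESC-tenocytes 972 were also called without IG, which is 91.3% of that list and 94.9% of the list without IG. For fetal tenocytes 836 genes were shared, 87.8% of the list with IG and 58.3% of the list without it. The number of shared genes that changed direction was 0. A further 833 genes were at least 4-fold higher in fetal tenocytes but did not pass p-adj 0.01 with all lines, against 194 genes at least 4-fold higher in ESC-tenocytes. In 734 of the 833 genes (88.1%) IG had the highest level among the ESC lines, compared with 78.9% of the DE genes higher in fetal tenocytes and 46.4% of all tested genes. Without IG 532 of them (63.9%) were DE. Of all genes tested in that fit, 10.9% were DE and higher in fetal tenocytes. The 833 genes were chosen for a large difference that did not pass with IG, so the choice partly sets their share.

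The largest fold changes among DE genes were on the ESC side when all 6 lines were used. The median Log2FC of DE genes was 3.94 in fetal tenocytes (median standard error 0.61) and -4.98 in ESC-tenocytes (median standard error 0.47), beside 0.00052 over all tested genes. Among the DE genes, 14 higher in fetal tenocytes and 87 higher in ESC-tenocytes had 0 counts in every line of the opposite group. With these set to their lower bound, calculated against a floor of 3 counts per library, the medians were 3.85 and -4.63. Without IG the order of the sizes turned, with medians of 6.07 and -5.27, or 5.05 and -4.79 with such genes at their bound. On the bounded scale with all lines, a fold change of 16 or more was seen in 444 DE genes higher in fetal tenocytes and 630 higher in ESC-tenocytes. Counted whatever their p-adj, and by fitted fold change, genes at 16-fold or more were instead more numerous in fetal tenocytes (949) than in ESC-tenocytes (698). At 64-fold or more that count was 109 in fetal tenocytes and 454 in ESC-tenocytes. On the bounded scale with all lines, a fold change of 64 or more was seen in 64 and 380 DE genes. One of 256 or more was seen in 0 and 187 genes, and one of 1024 or more in 0 and 85 genes. On the bounded scale without IG, the fetal list was the longer at the first 3 of these sizes. The corresponding numbers were then 926 and 620 genes at 16-fold, 515 and 368 at 64-fold, 211 and 187 at 256-fold, and 71 and 81 at 1024-fold. In that fit 276 DE genes higher in fetal tenocytes and 85 higher in ESC-tenocytes were held at their bound. By fitted fold change the fetal list was the longer at 1024-fold too, with 194 and 123 genes.

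**Figure D1:**
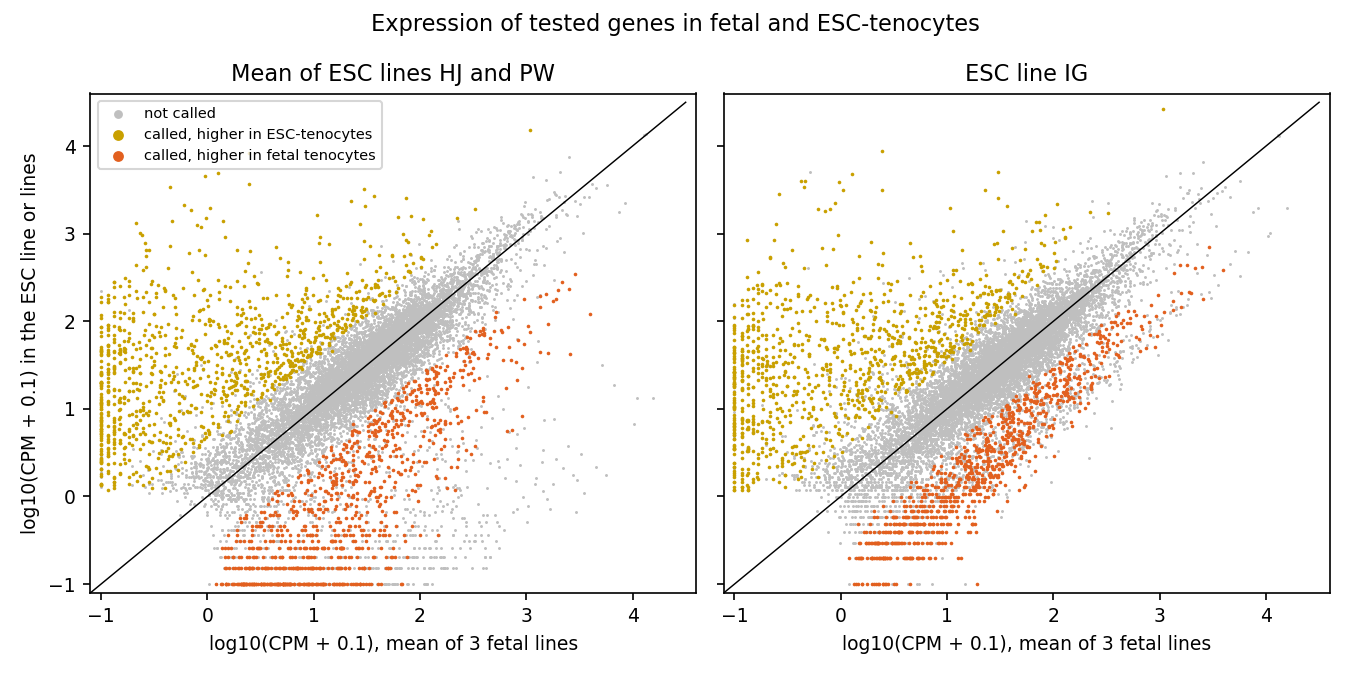
Expression of each tested gene in fetal tenocytes (horizontal, mean of 3 lines) against the mean of ESC lines HJ and PW (left) or against IG (right), on log10(CPM + 0.1) scales, with DE genes of the 6-line test in colour and the diagonal marking equal expression. Many genes that lie on the floor in HJ and PW but are expressed in fetal tenocytes lie above the floor in IG, while genes higher in ESC-tenocytes keep their place.

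Differences were found at every level of expression above 1 CPM. Genes were binned by their mean CPM in the group where they were higher. From 1 to 10 CPM, 321 of 2633 genes were DE and higher in fetal tenocytes and 213 were higher in ESC-tenocytes. From 10 to 100 CPM these numbers were 446 and 553 of 7534 genes, and from 100 to 1000 CPM they were 169 and 266 of 2456 genes. At 1000 CPM or more, 16 genes were DE and higher in fetal tenocytes and 33 in ESC-tenocytes, of 189 genes. Among DE genes of the 6-line test, those higher in fetal tenocytes were thus the more numerous only in the lowest of these 4 bins. Among genes with at least a 4-fold difference whatever their p-adj, they were the more numerous in each bin, with 586 against 303, 804 against 623, 345 against 297 and 50 against 36 genes. The same held for genes DE without IG, with 41 against 33 in the top bin.

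Many of the genes with the most reads in fetal tenocytes had far fewer in ESC-tenocytes, but most of those were not DE with all lines. Of the 20 genes with the highest mean CPM in each group 6 were common to both (30.0%), and of the top 100 genes 43 were (43.0%). Among the top 20 genes of fetal tenocytes 11 were at least 4-fold higher there than in ESC-tenocytes, but 1 was DE with all lines and 10 were DE without IG. Among the top 100, 46 were at least 4-fold higher, 15 were DE and 39 were DE without IG. Of all tested genes, 7.42% were DE and higher in fetal tenocytes with all lines and 10.9% without IG. In ESC-tenocytes 7 of the top 20 genes and 26 of the top 100 were DE and higher there, and both counts were the same without IG. The share over all tested genes was 8.3% with all lines and 7.78% without IG.

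Which group had the larger share of its reads in DE genes depended on the genes called. Genes called higher in ESC-tenocytes made up 18.4% of all counts in HJ, 18.7% in IG and 17.6% in PW, a mean of 18.2% ± 0.545 (SD, n = 3). In fetal tenocytes the same genes held 0.868% ± 0.0527 (SD, n = 3). Genes called higher in fetal tenocytes made up 9.47% of counts in 271d, 8.66% in 319d and 9.25% in 320d, a mean of 9.13% ± 0.418 (SD, n = 3). They held 1.03% ± 0.295 (SD, n = 3) in ESC-tenocytes, with 1.36% in IG, 0.878% in HJ and 0.834% in PW. The fetal share depended on IG, since the genes called without that line held 23.9% ± 0.675 (SD, n = 3) of fetal counts, above the 17.9% of counts in HJ and PW held by the genes called higher in ESC-tenocytes in that fit. Those genes higher in fetal tenocytes held 3.02% of counts in IG, 1.00% in HJ and 0.999% in PW. The order was also turned with DESeq2 on all 6 lines, at 21.2% of fetal and 19.0% of ESC counts, and for genes with at least a 4-fold difference whatever their p-adj, which held 26.4% to 26.8% of counts in the fetal lines and 18.4% to 21.3% in the ESC lines. Leaving out another line moved the fetal share as well, to 4.81% without 271d, 3.80% without 319d, 6.49% without 320d, 3.78% without HJ and 4.82% without PW. No test was made on these shares, because the same counts chose the genes.

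**Figure D2:**
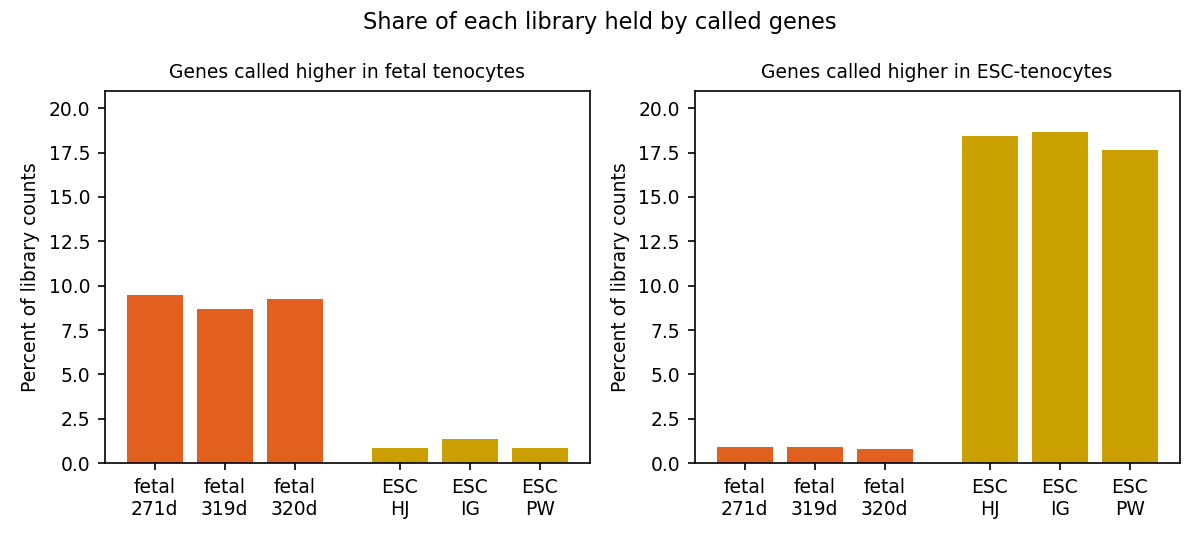
Percent of all counts in each library (bars, from 0) held by the genes called higher in fetal tenocytes (left) and by those called higher in ESC-tenocytes (right), for 3 fetal lines (orange) and 3 ESC lines (yellow). The fetal-higher genes hold 8.66% to 9.47% of fetal libraries and the ESC-higher genes 17.6% to 18.7% of ESC libraries.

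Genes that were on in one group and near zero in the other were counted without a test. A gene was taken as on with at least 5 CPM in every line of a group, and as near zero with at most 3 counts in every line of the other. With all lines, 186 genes were on in ESC-tenocytes and near zero in fetal tenocytes, and 13 genes showed the opposite pattern. Without IG the numbers were 193 and 427. The larger list was therefore that of ESC-tenocytes with IG and that of fetal tenocytes without it. The fetal list also moved to 20 genes without 319d and 26 without 320d. Of the 186 genes 184 were DE, as were all 13 genes of the fetal list, but the rule that chose them fixes their direction.

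The 186 genes on in ESC-tenocytes covered a wide range of expression, and their sum was similar in the 3 lines. Their median expression was 35.1 CPM, with 35 genes at 100 CPM or more and 1 gene above 1000 CPM. Together they reached 13223 CPM in HJ, 12755 CPM in IG and 12546 CPM in PW. In fetal tenocytes they summed to 7.57 CPM in 271d, 7.55 CPM in 319d and 8.96 CPM in 320d. Single genes varied more, and the ESC lines lay within 2-fold of each other in 106 of the 186. All 3 fetal libraries were at 0 counts for 50 of them. For these the median fold change was at least 84.3-fold and the highest at least 516-fold, against the floor of 3 counts per library. Such floors cover counting error only.

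The 13 genes on in fetal tenocytes were expressed at low levels. Their median was 9.65 CPM and their highest mean 18.9 CPM, and they summed to 183 CPM in 271d, 110 CPM in 319d and 141 CPM in 320d. The 427 genes of the list without IG reached further, with a median of 23.2 CPM, a highest mean of 554 CPM and 58 genes at 100 CPM or more. They summed to 20608 CPM in 271d, 22207 CPM in 319d and 24499 CPM in 320d. In the ESC lines they summed to 32.8 CPM in HJ, 36.0 CPM in PW and 1876 CPM in IG. Every one of these 427 genes was at least 4-fold higher in fetal tenocytes in the fit with IG, and 174 of them (40.7%) were DE there. The choice largely sets both numbers, since it holds HJ and PW near zero. Of all tested genes, 7.42% were DE and higher in fetal tenocytes in that fit.

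The IG library held reads of nearly all genes that were on in fetal tenocytes and near zero in HJ and PW, mostly at a low level. With the scaling of the 6-library fit, 425 genes had at least 5 CPM in every fetal line and at most 3 counts in HJ and in PW. IG took no part in that choice. It was above 3 counts in 412 of these genes (96.9%). Its median level was 8.01% of the fetal mean, with an interquartile range from 6.21% to 10.5%. Single genes under 100 CPM spread further, as in ENSECAG00000017143 at 1.36 CPM in IG against a fetal mean of 94.6 CPM. ENSECAG00000031152 had 5.07 CPM in IG against a fetal mean of 9.19 CPM. For the 58 genes with a fetal mean of 100 CPM or more, where counting error is small, the median was also 8.01%, with a range from 4.02% to 16.6%. The near-zero level of HJ and PW in these genes is given by the choice. In each of the 58 genes IG lay below the fetal mean. What set this level in IG was not tested.

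No fetal line showed such a pattern for genes of the ESC-tenocytes. The mirrored choice gave 212 genes for 271d, 210 for 319d and 205 for 320d, which were on in all ESC lines and near zero in the other fetal lines. The left-out fetal line had a median of 0.0408%, 0.0339% and 0% of the ESC mean. IG did not lack the genes of its own group. Over the 193 genes on in HJ and PW and near zero in fetal tenocytes, its median level was 98.4% of the mean of HJ and PW, with an interquartile range from 71.8% to 132%.

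**Figure D3:**
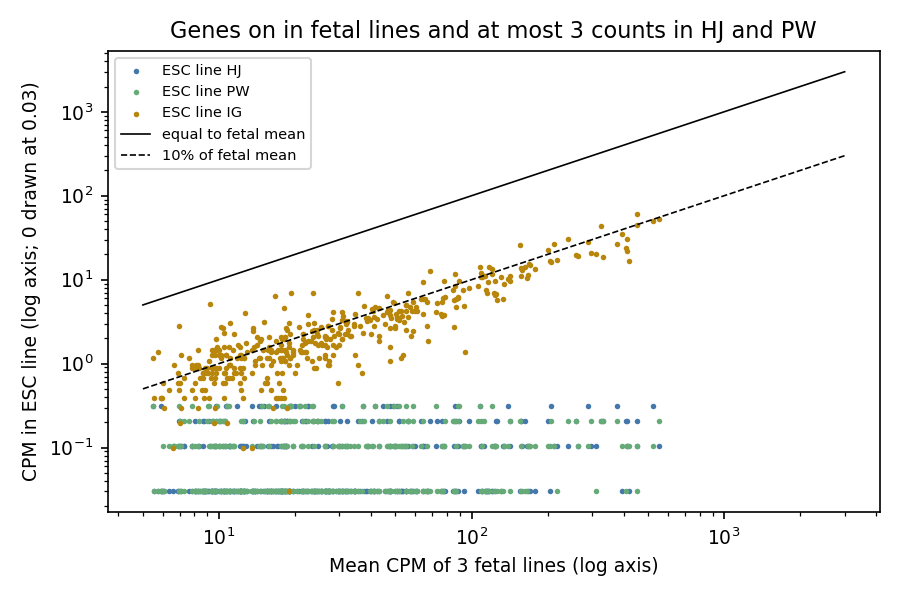
CPM of ESC lines HJ, PW and IG (vertical, log axis) against the mean CPM of the 3 fetal lines (horizontal, log axis) for the 425 genes with at least 5 CPM in every fetal line and at most 3 counts in HJ and PW, with values of 0 drawn at 0.03. Points of IG follow a band near the dashed line at 10% of the fetal mean, with a median of 8.01%, and those of HJ and PW stay near the floor.

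Each line was then placed between the groups using genes called in the fit of the other 5 lines. On this scale 0 is the mean log2 CPM of the remaining lines of its own group, which for HJ and PW include IG, and 1 the mean of the opposite group. Over genes higher in fetal tenocytes, IG had a median position of 0.41, HJ one of -0.10 and PW one of -0.16. The fetal lines lay at 0.04 (271d), 0.05 (319d) and 0.06 (320d) over such genes. Over genes higher in ESC-tenocytes all lines lay close to their own group, with IG at 0.00, HJ at -0.01 and PW at 0.04. IG was on its own side of the midpoint in 69.7% of genes higher in fetal tenocytes and 98.8% of genes higher in ESC-tenocytes. For the other 5 lines these shares lay between 95.2% and 99.5%. By this measure IG was displaced over the genes higher in fetal tenocytes and not over those higher in ESC-tenocytes.

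Differences among lines of a group were smaller than those between groups. Between a fetal and an ESC line, 2036 to 2312 genes with at least 10 CPM in either line differed 4-fold or more. Within the fetal group this number was 160 for 271d and 319d, 186 for 271d and 320d and 232 for 319d and 320d. Within the ESC group it was 144 for HJ and PW, 327 for HJ and IG and 415 for IG and PW. The biological coefficient of variation estimated by edgeR was 0.330 among fetal lines and 0.418 among ESC lines, but 0.282 between HJ and PW. IG was at least 4-fold above both other ESC lines in 235 genes and 4-fold below both in 13. In 215 of these 248 genes (86.7%) the deviation was towards the fetal mean. Of the fetal lines, 319d had 111 genes at least 4-fold above both other fetal lines and 3 below, of which 69.3% deviated towards the ESC mean. For the remaining 4 lines the share towards the opposite group lay between 38.6% and 61.3%.

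Few genes could be named. The names of 5 genes are inferred from values that the study printed for them and are not recorded in the counts. Since the study picked these genes on the same samples, they are not independent evidence of any direction. COMP encodes cartilage oligomeric matrix protein, which binds collagen in the matrix of tendon and cartilage. It was at 95.4 CPM in 271d, 125 CPM in 319d and 397 CPM in 320d, and at 0.730 CPM in HJ, 17.3 CPM in IG and 0.209 CPM in PW. All fetal lines were above all ESC lines, and IG was the highest ESC line at 8.39% of the fetal mean. The Log2FC of 5.07 (standard error 1.58) had a p-adj of 0.0393 in edgeR and was not DE. Without IG it was 8.74 with a p-adj of 0.00235 in edgeR, and DESeq2 gave a p-adj of 0.00259 with all lines. Over the alternatives run, the p-adj of COMP from edgeR or DESeq2 ranged from 0.00235 to 0.0914.

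The other named genes include members of the TGF-beta superfamily pathway, whose ligands signal through paired type I and type II receptors. BMP7, a bone morphogenetic protein and ligand of this superfamily, was at 7.47 CPM in 271d, 13.6 CPM in 319d and 2.89 CPM in 320d. Of the ESC lines HJ and PW had 0 counts and IG had 3. The groups did not overlap and every ESC line was at or under the floor. Summed over lines, BMP7 was 88.1-fold higher in fetal tenocytes, with an exact Poisson 95% interval from 30.0 to 429 that covers counting error only. All 3 counts on the ESC side were from IG, and against HJ and PW, both at 0, BMP7 was at least 25.5-fold higher at the floor of 3 counts per library. It was DE (p-adj = 0.00628 in edgeR), but not without 271d (0.0201), 319d (0.0204), HJ (0.0231) or PW (0.0219), nor with a term for library total (0.0359). The Log2FC of BMP7 was 6.19 with all lines and 6.20, 5.56, 5.65 and 5.66 without these lines, in the same order. BMP7 had a Log2FC of 4.71 with the term for library total, where 320d alone sets the fetal side. Over the alternatives run, its p-adj from edgeR or DESeq2 ranged from 3.38e-08 to 0.0359. TGFBR1, a type I receptor of this pathway, was at 51.5 CPM in 271d, 63.7 CPM in 319d and 51.1 CPM in 320d. The ESC lines had 39.0 CPM in HJ, 19.8 CPM in IG and 22.0 CPM in PW. The groups did not overlap, but HJ lay nearer the fetal lines than the other ESC lines did. The Log2FC of 1.04 (standard error 0.29, p-adj = 0.0259 in edgeR) did not pass the thresholds. Over the alternatives run its p-adj ranged from 0.000648 in DESeq2 to 0.147 and its Log2FC from 0.86 to 1.40. It was under 0.01 in DESeq2 and without HJ (0.0059 in edgeR), but the Log2FC stayed under 2.

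IL1R2, a decoy receptor that binds interleukin-1 without signalling, was at 216 CPM in HJ, 179 CPM in IG and 260 CPM in PW. It was at 0.454 CPM in 271d, 0.447 CPM in 319d and 0.578 CPM in 320d, from 6 to 9 counts per line. Every ESC line was far above every fetal line, and IG was level with HJ and PW. The Log2FC of -8.79 (standard error 0.25) had a p-adj of 4.43e-05 in edgeR, and IL1R2 was DE in all 12 alternatives run. ACTA1, the skeletal muscle form of alpha-actin, had 2, 4 and 2 counts in 271d, 319d and 320d, and 1, 0 and 2 counts in HJ, IG and PW. It was not tested in the main fit, since these counts did not pass the filter on low counts, and no fold change is given. Without that filter its p-adj was 0.644 in edgeR.

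A further 4 genes are given by identifier, as those with the largest difference in mean CPM among DE genes and the highest mean CPM among genes on in one group. ENSECAG00000004216 led the difference towards fetal tenocytes, at 3261 CPM in 271d, 4184 CPM in 319d and 4379 CPM in 320d, and at 106 CPM in HJ, 382 CPM in IG and 136 CPM in PW. The groups were far apart, and IG was again the highest ESC line, at 9.69% of the fetal mean. Its Log2FC was 4.24 (standard error 0.58, p-adj = 0.00254 in edgeR). The call was lost without 319d (p-adj = 0.0109) or PW (0.0113) and with a term for library total (0.0156), while the Log2FC was 4.20, 4.01 and 4.40 in these fits. Without IG the Log2FC was 5.02 (p-adj = 0.000213 in edgeR). Over the alternatives run, p-adj lay between 4.55e-18 and 0.0156 in edgeR or DESeq2. ENSECAG00000032943 led the 13 genes on in fetal tenocytes, with 20.6 CPM in 271d, 22.5 CPM in 319d and 13.5 CPM in 320d. It had 0 counts in HJ, IG and PW and was at least 60.4-fold higher in fetal tenocytes. It was the only gene of that list with no count in any ESC line, IG included.

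ENSECAG00000008401 led the difference towards ESC-tenocytes and had the highest mean CPM of any gene in that group. It was at 14167 CPM in HJ, 26618 CPM in IG and 16334 CPM in PW, and at 1175 CPM in 271d, 1301 CPM in 319d and 751 CPM in 320d. The groups did not overlap, and here IG lay farther from the fetal lines than HJ and PW. The Log2FC was -4.15 (standard error 0.41, p-adj = 0.000881 in edgeR). ENSECAG00000017274 led the 186 genes on in ESC-tenocytes, with 1020 CPM in HJ, 548 CPM in IG and 1600 CPM in PW. It had 0, 3 and 2 counts in 271d, 319d and 320d. Summed over lines it was 10512-fold higher in ESC-tenocytes, with an exact Poisson 95% interval from 4504 to 32377 that covers counting error only and not the spread between lines. It was DE (p-adj = 0.000399 in edgeR). Among the alternatives run for these 2 genes, only the term for library total ended a call (p-adj = 0.0104 and 0.0121 in edgeR, at a Log2FC of -4.66 and -12.35), and the lowest p-adj were 5.68e-33 and 7.24e-62 in DESeq2. For single genes, an exact permutation test of 3 lines against 3 could not go below a two-sided p of 0.1.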

How the data were processed

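RNA from 3D constructs of 3 fetal and 3 ESC lines was analysed, with 1 library per line. The authors quantified reads with Salmon against the Ensembl horse transcriptome, imported them with tximport and deposited estimated counts for 21689 genes, without normalisation. Library kits and sequencing providers differed within the study but were not assigned to libraries by the labels, so no batch term was fitted. The authors applied batch correction in their own DESeq2 analysis. Estimated counts were rounded to whole numbers. Of 17357 genes with a count, 12826 passed filterByExpr by group. TMM scaling and edgeR's quasi-likelihood test (edgeR 4.0.16, R 4.3.3) were applied to these 6 libraries, with standard errors from the ratio of the absolute Log2FC to the root of F. DE meant an absolute Log2FC of at least 2 and a p-adj (Benjamini-Hochberg) under 0.01. DESeq2 1.42.0 was the alternative tool, and its 31 NA values of p-adj stayed NA. Log2 CPM for distances used a prior count of 2. The steps were tested on simulated data. Within groups, no pair of libraries was the same RNA sequenced again, since chi-square values over genes were 45.8 to 101 times their degrees of freedom. This check cannot tell a second culture of a line from another line.

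The identifiers were not paired with names, and the RefSeq gene table (assembly TB-T2T) matched 0 of them. The named genes were COMP, IL1R2, ACTA1, BMP7 and TGFBR1, whose rows were inferred in earlier work by matching fold changes or p-adj that the study printed to a partial copy of its supplementary table, which lists identifiers without names. That match was not repeated over all genes here, so a second matching row was not looked for. Rows for TGFBR2 and LOXL4 were sought by the same means within a Log2FC of 0.15, gave 0 and 2 candidates, and are not reported. By identifier, 2 genes per direction were given, namely the DE gene with the largest difference in mean CPM and the gene on in 1 group with the highest mean CPM. The members, lists and thresholds were chosen with earlier results of these data known. Alternatives are given in the closing section.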

Additional observations from a re-analysis of the deposited data

How the results depend on the processing

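The count of 2017 DE genes was within 1.5 times of the reported value with DESeq2, robust estimation, DESeq2's size factors, library totals alone, no low-count filter, a filter on mean CPM, glmTreat, all 9 libraries, thinned libraries and a p-adj of 0.05. It was 643 with a term for library total, 3677 without a fold change threshold and 3102 in DESeq2 without IG, an alternative added after seeing the data. With each library left out it ranged from 1075 to 2459. The share higher in fetal tenocytes ranged from 27.4% to 58.4% with each library left out, and was 29.9% with the depth term, 34.9% in glmTreat, 56.8% with all 9 libraries and 57.5% at a p-adj of 0.05. The scalings moved the median Log2FC of tested genes by less than 0.1.

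Genes on in fetal tenocytes numbered 177 at 1 CPM, 0 at 20 CPM, 1 with 0 counts allowed, 120 with 10 counts allowed, 4 with 0.2 CPM allowed and 22 in thinned libraries, and from 12 to 427 with each library left out. Genes on in ESC-tenocytes numbered 297 at 1 CPM, 100 at 20 CPM, 50 with 0 counts allowed and 282 with 10 counts allowed, and from 193 to 212 with each library left out. Both lists are set by these limits and by depth, since 3 counts are 0.149 CPM in the deepest library and 0.313 CPM in the shallowest.

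Genes called by DESeq2 held 21.2% of fetal and 19.0% of ESC counts. With each library left out, and averaged over the remaining lines of the group, these shares in edgeR ranged from 3.78% to 23.9% and from 16.4% to 17.9%. The median position of IG over all DE genes, 0.22, lay between 0.20 and 0.24 under the alternatives. The ratio of distances between groups to those within groups was 2.80, and 3.62 over the 500 most variable genes, with a range from 2.51 to 3.43 with each library left out. Among the genes given by name or identifier, a call was lost in 5 alternatives for BMP7, 3 for ENSECAG00000004216 and 1 each for ENSECAG00000008401 and ENSECAG00000017274, and gained in 2 for COMP. None of the alternatives run reversed a direction. Where results moved, the cause was not tested. No paired analysis was possible because the line names hold no replicate number and no label ties a fetal line to an ESC line.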
